A study of Mus musculus with 12 samples.

Results

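Crystallins are the soluble proteins that fill the fibre cells of the lens, and 10 genes that carry the crystallin name were followed through RNA sequencing libraries of adult mouse retina. They were taken by gene symbol: Cryaa and Cryab of the α family, Cryba1, Cryba2, Cryba4, Crybb1, Crybb2 and Crybb3 of the β family, Crygs of the γ family, and Crym. The deposited tables hold 37991 genes, and each of the 10 symbols matched 1 of them. The libraries came from retinas of 8-week-old male mice, each from a pool of 6 to 8 retinas, and fell into 4 groups of 3. F0 C57BL/6J is the standard inbred strain and F0 Cast/EiJ a wild-derived inbred strain. F1 B6xCast hybrids had a C57BL/6J father and a Cast/EiJ mother, and F1 CastxB6 hybrids the reverse, so every F1 library carried one allele from each strain. No animal was treated and no gene was engineered.

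The α-crystallins belong to the small heat shock proteins and act as chaperones, and the β- and γ-crystallins are structural proteins of one superfamily. Cryaa and the β- and γ-crystallins are made in very large amounts by lens fibre cells, which lie directly in front of the retina, so lens tissue left on a dissected retina brings their RNA with it. Retinal neurons and glia are also known to make crystallins, Cryab most widely, and to make more after injury. Crym encodes μ-crystallin, which shares the name only. It is an NADP-dependent protein that binds thyroid hormone in the cytosol.

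Crystallin genes of the lens are known targets of large Maf transcription factors, which bind the half-site TGCTGA. RefSeq promoters on GRCm38.p6 were found for 8 of the 10 genes, with Cryab and Crym not matched. This half-site stood on either strand within the 250 bases before the start in 7 of 8, all but Crybb2, and in 16.1% of the 32851 promoters of the table. TATAAA, where the basal transcription machinery binds, stood there in 3 of 8, Crybb1, Cryba1 and Crygs, and in 12.4% of all promoters. The 120 bases before the start are shown for the 5 genes that hold it within them, with the half-site, read on either strand, in capitals. A match of these letters is a description of the sequence and not a bound site.
Cryaa, chr17:31677811-31677930, plus strand: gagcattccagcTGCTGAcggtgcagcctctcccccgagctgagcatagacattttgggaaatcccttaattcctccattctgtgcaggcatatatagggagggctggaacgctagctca
Cryba1, chr11:77725294-77725413, minus strand: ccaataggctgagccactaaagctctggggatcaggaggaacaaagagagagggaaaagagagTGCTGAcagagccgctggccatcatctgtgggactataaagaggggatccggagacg
Cryba4, chr5:112252519-112252638, minus strand: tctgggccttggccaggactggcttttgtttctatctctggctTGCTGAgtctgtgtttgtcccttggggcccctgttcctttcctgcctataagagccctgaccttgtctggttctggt
Crybb1, chr5:112255700-112255819, plus strand: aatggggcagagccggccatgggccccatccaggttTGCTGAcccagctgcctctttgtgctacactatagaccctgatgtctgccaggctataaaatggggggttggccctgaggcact
Crybb3, chr5:113081585-113081704, minus strand: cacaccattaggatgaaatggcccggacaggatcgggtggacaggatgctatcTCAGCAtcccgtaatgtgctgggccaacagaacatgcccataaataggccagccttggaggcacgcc

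The genes are spread over 7 autosomes of NCBI37, the build of the deposited tables. Cryba4 (chromosome 5, 112675513 to 112681538, minus strand) and Crybb1 (112684835 to 112698605, plus strand) lie head to head, 3296 bp apart, and Crybb2 and Crybb3 follow each other on the minus strand of the same chromosome, 5721 bp apart. Cryab (chromosome 9, 50560863 to 50564738) starts 403 bp from Hspb2, another small heat shock gene on the opposite strand, which averaged 0.823 count equivalents. Cryaa lies on chromosome 17 (31814878 to 31818667), Crygs on chromosome 16 (22805276 to 22811483) and Crym on chromosome 7 (127329894 to 127345625). Cryba1 (chromosome 11, 77532117 to 77538785, minus strand) lies inside the span of Nufip2, a gene of the plus strand. The libraries did not mark strand, so any reads from shared exons of that pair cannot be told apart.

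Levels are given as count equivalents, the authors' normalized estimate of read pairs per gene. An F1 library has one value for each allele, each scaled to a whole library, so its level is the mean of both. Unique hits are the raw counts of read pairs that matched a single gene, or in F1 a single allele of it, and totalled 8158534 to 12363291 per library. F0 libraries were sequenced on 1 lane and F1 libraries on 2. Rates are given as unique hits per 1000000 unique hits of the library. Rod markers, led by rhodopsin, summed to 765500 to 837200 count equivalents in every library, the makeup of retina.

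Compared per length, in FPKM, Cryab and Crym stood well above the others in all 4 groups. In F0 C57BL/6J, Cryab averaged 26.8 ± 0.82 FPKM (SD, n = 3) and Crym 14.7 ± 1.0, and these did not overlap. In F0 Cast/EiJ they averaged 27.5 ± 0.98 and 24.4 ± 2.0 and did overlap, as they did in both F1 crosses. Cryaa came next, at 3.53 to 6.30 FPKM by group, and its libraries overlapped those of Crybb2, the fourth, at 2.42 to 4.21 FPKM, in every group. The other 6 genes averaged between 0.240 and 1.93 FPKM. Their order changed from group to group, and neighbours in it overlapped, except Crybb3 and Crygs in F0 Cast/EiJ and Cryba2 and Crybb1 in F1 CastxB6.

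Cryaa, the αA chaperone of lens fibres, varied most between replicates of the 10 genes when every library was counted. Without F0 C57BL/6J replicate 2, Cryba2 varied most. It was measured at 131, 3.95 and 98.3 count equivalents in F0 C57BL/6J replicates 1, 2 and 3, and at 141, 51.3 and 181 in F0 Cast/EiJ. Levels in F1 B6xCast were 82.4, 63.6 and 56.5, and those in F1 CastxB6 75.8, 91.9 and 136. Replicate 2 was thus the low library of both F0 strains, and the groups overlapped. Behind the value of 3.95 stood 4 unique hits, against 115 and 82 in the other libraries of that group.

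Crybb2, the most abundant β-crystallin here, followed the same order in F0. Its levels were 46.7, 5.89 and 41.4 count equivalents in F0 C57BL/6J, and 38.0, 19 and 49.3 in F0 Cast/EiJ. In F1 they were 38.6, 28.1 and 27.2 in B6xCast and 40.1, 40.4 and 73.0 in CastxB6. Low libraries of F0 were again both replicates 2, and the highest of all was F1 CastxB6 replicate 3.

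Cryba1, which encodes the βA3 and βA1 proteins, had 30.8, 2.98 and 23.6 count equivalents in F0 C57BL/6J. In F0 Cast/EiJ it had 8.67, 7.16 and 16.1, all below the 2 high C57BL/6J libraries. F1 B6xCast gave 15.4, 26.5 and 18.9 and F1 CastxB6 18.6, 24.0 and 29.7. The low C57BL/6J library thus fell below every Cast/EiJ library, while the other two stood above them.

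Crygs, the γS-crystallin of the lens cortex, was measured at 13.3 and 10.2 count equivalents in F0 C57BL/6J replicates 1 and 3. In replicate 2 it was listed near 0 with 0 unique hits. F0 Cast/EiJ held 10.1, 8.35 and 11.8, and the F1 libraries lay between 6.95 and 18.1, highest in CastxB6 replicate 3. Apart from the one library near 0, the levels of the 4 groups overlapped.

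Crybb3 had the smallest within-group spread of these 8 genes when every library was counted. It had 20.2, 12.5 and 15.7 count equivalents in F0 C57BL/6J and 16.7, 17.0 and 27.4 in F0 Cast/EiJ. The F1 libraries spanned 10.5 to 28.2. Its unique hits fell further in F0 C57BL/6J, from 17 and 11 to 5 in replicate 2, than its count equivalents, which also hold shared reads.

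The lowest members were Cryba2, Cryba4 and Crybb1, which averaged 8.19, 5.13 and 7.06 count equivalents over the 12 libraries. Cryba2 had 13.3, 0.745 and 10.4 in F0 C57BL/6J, Cryba4 9.07, 0.082 and 5.69, and Crybb1 12.7, 1.10 and 10.9, with replicate 2 low each time. F1 B6xCast replicate 1 was low too for Cryba2 and Cryba4, with 0 unique hits for either. At this depth a count of 0 allows up to 3 hits, so these values are read as low and not as absent.

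**Figure D1:**
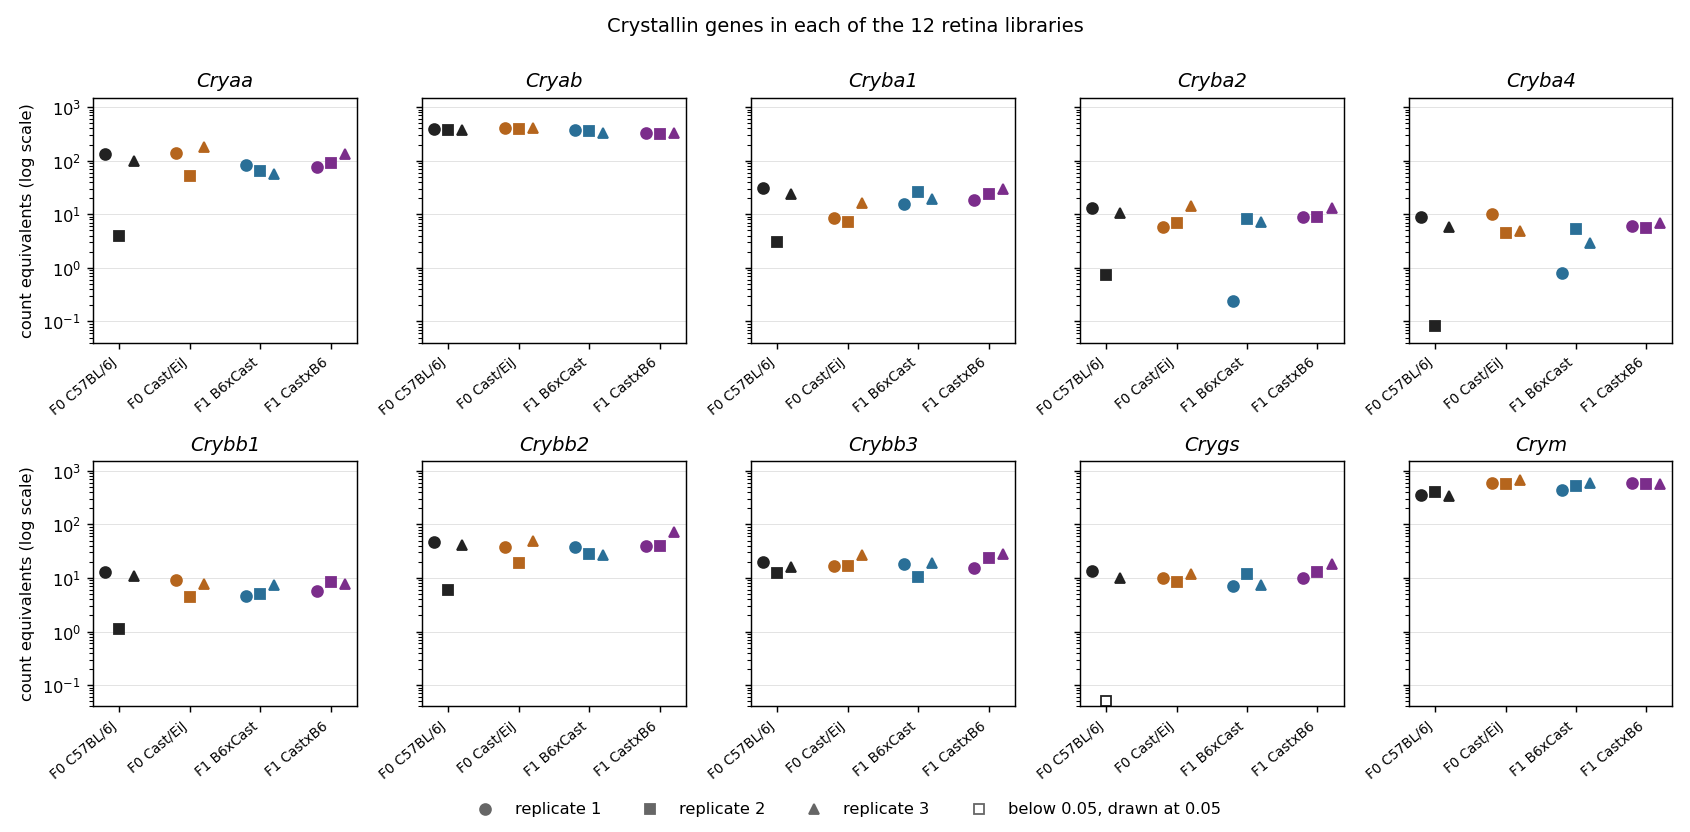
Count equivalents (log axis) of the 10 crystallin genes in the 12 retina libraries, 1 panel a gene and 1 point a library, coloured by group and shaped by replicate number. In F0 C57BL/6J the square of replicate 2 lies below the other replicates in 8 of the 10 panels, and lies level with them for Cryab (377) and above them for Crym (401).

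The 8 genes other than Cryab and Crym went up and down in the same libraries. F0 C57BL/6J replicate 2 was the lowest of its group for 8 of 8 and replicate 1 the highest for 8 of 8, where among 15864 genes (mean level 5 count equivalents or more) replicate 2 was lowest for 29.4% and both held for 16.6%. In F0 Cast/EiJ, replicate 2 was lowest for 6 of 8 and replicate 3 highest for 6 of 8. F1 CastxB6 replicate 3 was highest for 7 of 8, and F1 B6xCast showed the least common order, with replicate 1 lowest for 5 of 8. Since these genes were put together in view of such swings, the shared order is a description.

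Summed over the 8 genes, the rate of unique hits was 21.8 (95% exact Poisson interval 19.2 to 24.8) in F0 C57BL/6J replicate 1, 1.60 (0.962 to 2.50) in replicate 2 and 17.4 (14.9 to 20.1) in replicate 3. F0 Cast/EiJ gave 19.1, 9.68 and 25, F1 B6xCast 18.2, 17.3 and 14.8, and F1 CastxB6 19.4, 23.5 and 31.8. The rate of replicates 1 and 3 of F0 C57BL/6J together was 12.3 times that of replicate 2 (95% interval 7.78 to 20.6, exact binomial on 420 and 19 hits). These intervals cover counting error only. The interval of the low library did not reach those of its group mates.

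Single genes carried the same gap to differing degrees. For Cryaa the rate ratio was 27.4 (10.5 to 102), for Crybb2 6.77 (2.97 to 19.1) and for Crybb3 3.12 (1.19 to 10.3). Cryba1, Cryba2 and Crybb1 rested on 2, 1 and 1 hits in the low library, with ratios of 13.1 (3.43 to 111), 11.7 (1.88 to 483) and 11.1 (1.78 to 461). Crygs and Cryba4 had 0 hits there and were at least 3.90-fold and 2.41-fold lower, taking 3 hits in that library as the floor, and exact intervals that also hold the error of the other libraries start at 2.90 and 1.70. In count equivalents, 0.573% of 15876 genes lay over 5-fold below the mean of replicates 1 and 3 in this library.

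Cryab and Crym did not share that gap. Cryab, the αB chaperone, was measured at 398, 377 and 378 count equivalents in F0 C57BL/6J and at 401, 384 and 405 in F0 Cast/EiJ. It stood at 370, 358 and 332 in F1 B6xCast and at 330, 316 and 326 in F1 CastxB6, so that every F0 library lay above every F1 library on this scale. In FPKM the highest F1 B6xCast library (26.3) passed the lowest F0 C57BL/6J library (26.0). In F0 C57BL/6J replicate 2 it had 357 unique hits where the rate of its group mates gave 366.

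Crym had 354, 401 and 345 count equivalents in F0 C57BL/6J and 591, 579 and 670 in F0 Cast/EiJ. F1 B6xCast libraries stood at 437, 527 and 594 and F1 CastxB6 libraries at 584, 570 and 572. The F0 strains did not overlap, and the F1 libraries lay between or beside the Cast/EiJ ones. In the library where the lens crystallins were low, Crym was the highest of its group.

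Within-group spread, the SD of log2 (count equivalents + 1), put numbers on this contrast. Cryaa spread by 1.42, more than 98.8% of the 3165 genes within 2-fold of its mean level, whose median was 0.19. Crybb2, Cryba1, Crygs and Cryba2 spread by 0.90, 0.90, 1.10 and 1.21, above 95.9%, 94.8%, 96.2% and 97.6% of genes of like level. Cryba4 and Crybb1 spread by 1.01 and 0.82, above 93.5% and 88.0%, and Crybb3 by 0.40, above 59.2%. Cryab spread by 0.05, below all but 2.64% of genes of like level, and Crym by 0.14, at 69.0%.

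Much of that spread rested on one library. Without F0 C57BL/6J replicate 2, the spread of Cryaa was 0.59, still above 94.5% of genes of like level, and that of Crybb2 0.48, above 85.9%. Cryba2 kept a spread of 0.94 (92.9%). Cryba1 then spread by 0.41 (61.8%), Cryba4 by 0.59 (62.4%), Crygs by 0.34 (24.8%) and Crybb1 by 0.34 (20.4%). Crybb3 stayed at 0.40 (60.5%), above Crygs and Crybb1. The last 5 genes then lay within the middle range of genes of like level or below it.

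**Figure D2:**
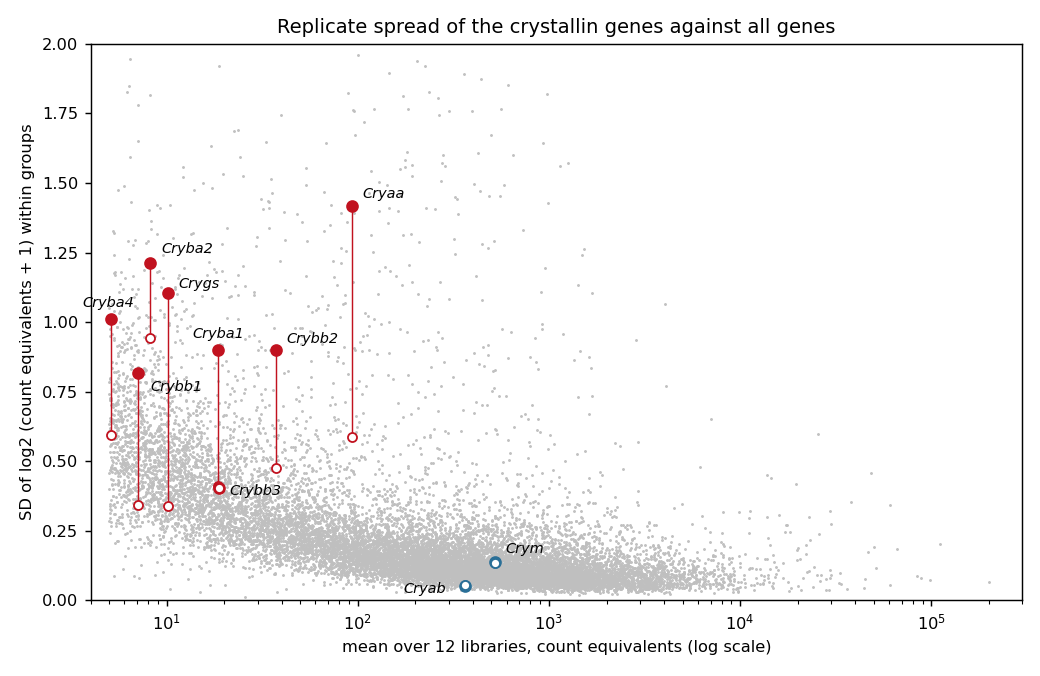
Within-group SD of log2 (count equivalents + 1) against the mean level (log axis) for 15864 genes (grey), with the crystallin genes in red and Cryab and Crym in blue. Open circles joined by lines show the SD without F0 C57BL/6J replicate 2, to which the filled point of Cryaa drops from 1.42 to 0.59, and 63 genes with an SD above 2 lie off the plot.

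The common movement was described with and without that library. After each group's mean was taken off, the log2 level of Cryba1 followed the mean of the other 7 genes with r = 0.98 over the 12 libraries and 0.95 over 11 without F0 C57BL/6J replicate 2. For Crygs r was 0.97 and 0.92, for Cryaa 0.94 and 0.84, for Crybb1 0.95 and 0.86 and for Crybb2 0.91 and 0.78. Cryba4 gave 0.86 and 0.68, Cryba2 0.75 and 0.58 and Crybb3 0.41 and 0.31. Cryab gave 0.26 and 0.17, and Crym −0.18 and 0.18. The group means included F0 C57BL/6J replicate 2 in both cases, so the second r of each gene is not free of that library. Each r describes points that share a library and its depth, and has no test.

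Lens markers outside the crystallin family moved in part with these genes. The 12 markers, among them the lens fibre membrane and filament genes Mip, Bfsp1 and Bfsp2 and the galectin-like Grifin, had 29, 8 and 21 unique hits in F0 C57BL/6J. They had 17, 7 and 26 in F0 Cast/EiJ, 27, 24 and 28 in F1 B6xCast and 35, 36 and 53 in F1 CastxB6. Within their own group, in count equivalents, 11 of 12 were lowest in F0 C57BL/6J replicate 2 and 11 of 12 highest in F1 CastxB6 replicate 3. The exception in the first was Mip, the main membrane channel of lens fibres, at 4.41 there on 1 unique hit and at 1.61 or less in its group mates. The level of the markers was low throughout, since Grifin, Bfsp1 and Bfsp2 averaged 4.25, 5.31 and 4.07 count equivalents and Lim2, Gja3, Dnase2b, Birc7 and Lctl under 1. Lim2, Gja3, Dnase2b, Birc7 and Lctl had 2, 4, 1, 3 and 3 unique hits over all 12 libraries. Their ranks thus largely compare estimates without hits, and the tallies of 11 of 12 are a description only.

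In summed count equivalents the marker list spanned 69.4 to 116 in F0 C57BL/6J, 63.8 to 142 in F0 Cast/EiJ, 80.0 to 104 in F1 B6xCast and 73.1 to 124 in F1 CastxB6. Most of that was Lenep, which averaged 79.9 count equivalents on 30 unique hits in all 12 libraries and overlaps Flad1. Without Lenep the sum was 33.4, 11.6 and 22.5 in F0 C57BL/6J, 23.1, 12.0 and 27.6 in F0 Cast/EiJ, and 14.1 to 30.9 in F1. The part of lens tissue in the swings of the crystallin genes was not tested. In bulk libraries, fewer cells of a type and less RNA per cell cannot be told apart.

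The 6 further γ-crystallin genes, Cryga to Crygf, are known mainly from lens fibres. Their unique hits were 28, 1 and 12 in F0 C57BL/6J and 7, 4 and 3 in F0 Cast/EiJ. The F1 libraries had 18, 23 and 22 in B6xCast and 31, 31 and 54 in CastxB6. They shared the low library of F0 C57BL/6J and the high library of F1 CastxB6, but in F0 Cast/EiJ replicate 3, where the 8 genes were highest, they were lowest, on 3 to 7 hits a library.

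**Figure D3:**
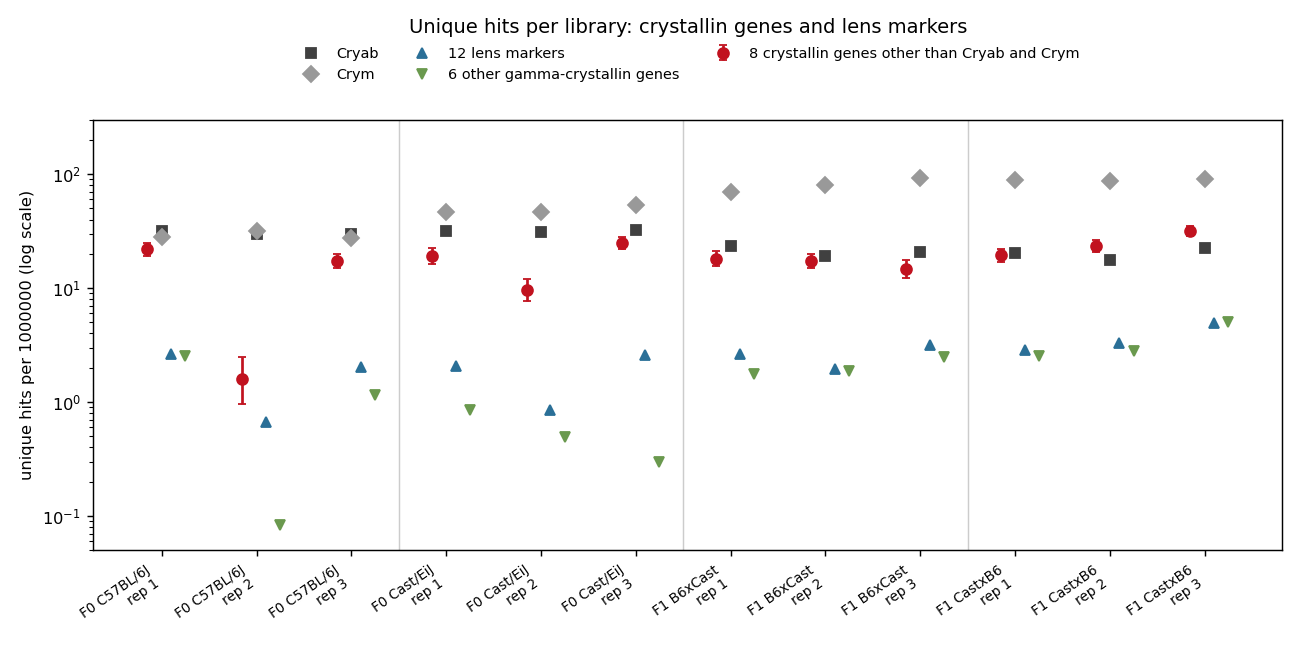
Rate of unique hits per 1000000 (log axis) in each of the 12 libraries for the 8 crystallin genes other than Cryab and Crym (red, bars are 95% exact Poisson intervals), Cryab, Crym, the 12 lens markers and the 6 further γ-crystallin genes. The red points drop to 1.60 in F0 C57BL/6J replicate 2 and rise to 31.8 in F1 CastxB6 replicate 3, and F0 and F1 are not comparable on this axis because only hits that tell the alleles apart are counted in F1.

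Markers of other tissues near the retina were not lowest in F0 C57BL/6J replicate 2. Retinal pigment epithelium markers summed to 452 to 512 count equivalents in F0 C57BL/6J and 254 to 309 in F0 Cast/EiJ. Markers of cornea, ciliary body and iris summed to 28.4 to 53.0 in all libraries. Blood markers summed to 688 to 1041 in F0 C57BL/6J and 277 to 634 in the other groups. In F0 Cast/EiJ, replicate 2 was the lowest of its group for both of the last 2 sums (33.1 and 373), as for the lens crystallins, and their part in those levels was not tested.

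The first comparison asked which crystallin genes differ between the parental strains. Of the 10 genes, 8 reached 10 count equivalents in 3 or more F0 libraries and were tested, and Cryba4 and Crybb1 were not. Crym alone passed the test, 1 of 8, where 33.8% of the 14452 autosomal genes tested passed (limma, adjusted p under 0.05) and 17.2% were higher in Cast/EiJ. It was higher in Cast/EiJ by 0.74 on the log2 scale (SE 0.10, adjusted p = 0.00054, limma), and all Cast/EiJ libraries lay above all C57BL/6J libraries, as in either direction for 47.7% of 15017 genes.

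The lens crystallins had large but poorly determined differences. Cryaa differed by 1.46 (SE 1.09, adjusted p = 0.33), Crygs by 1.02 (SE 0.90), Cryba2 by 0.52 (SE 0.77) and Crybb2 by 0.50 (SE 0.69), all Cast/EiJ minus C57BL/6J on the log2 scale. The median over the 8 genes tested was 0.51, beside 0.03 over all genes. Without F0 C57BL/6J replicate 2 these values were −0.05 for Cryaa (SE 0.48), −0.20 for Crygs, −0.44 for Cryba2 and −0.40 for Crybb2. The sign of 4 genes thus turned on a single library, and none passed the test either way (24.2% of genes passed without that library).

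Cryba1 behaved differently. With all 6 libraries its difference was −0.40 (SE 0.73, adjusted p = 0.70), and without F0 C57BL/6J replicate 2 it was −1.34 (SE 0.42, adjusted p = 0.054). Without F0 C57BL/6J replicate 1 it was 0.16. Crybb3 differed by 0.31 (SE 0.31), but by 0.0836 without F0 Cast/EiJ replicate 3 and 0.15 without F0 C57BL/6J replicate 2, and Cryab by 0.05 (SE 0.08, adjusted p = 0.70), which turned to −0.0359 with TMM factors.

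The second comparison read both alleles within the same F1 library, so that both came from the same tissue. The 7 genes with enough allele-specific hits were Cryaa, Cryab, Cryba1, Crybb2, Crybb3, Crygs and Crym. Of these, 2 of 7 passed, beside 47.0% of the 13414 genes tested. Crym was higher from the Cast/EiJ allele and Cryab from the C57BL/6J allele, and 23.5% of genes passed in each direction.

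The Cast/EiJ allele of Crym exceeded the C57BL/6J allele by 0.60 on the log2 scale (SE 0.08, adjusted p = 6.0e-06, limma), in 6 of 6 libraries. Its share of the unique hits was 62.7%, 60.7% and 58.9% in F1 B6xCast and 57.4%, 58.7% and 60.3% in F1 CastxB6. Pooled, it was 59.6% (95% Wilson interval 58.3 to 60.9, 5540 hits). The allelic and the F0 strain difference of Crym differed by 0.14 (SE 0.14, adjusted p = 0.57), so a difference between them was not shown.

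Cryab passed with a small difference of −0.16 (SE 0.06, adjusted p = 0.035, limma), Cast/EiJ minus C57BL/6J allele, and the C57BL/6J allele was the higher in 4 of 6 libraries. The Cast/EiJ share was 44.1%, 51.9% and 50% in F1 B6xCast and 44.2%, 44.6% and 47.1% in F1 CastxB6, 46.9% in all (44.2 to 49.6, 1337 hits). The call was lost when any of 3 libraries was left out (F1 B6xCast replicate 1, F1 CastxB6 replicate 1 or F1 CastxB6 replicate 2, adjusted p = 0.19, 0.14 and 0.0955). It was also lost with edgeR on the unique hits (55.7% of genes passed), with TMM factors (47.4%) and with the F1 libraries alone (41.9%).

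Cryaa had an allele share near 50% in every F1 library, and a difference between its alleles was not shown. Single-library intervals were wide, such as 37.1% to 61.4% in F1 B6xCast replicate 3 (61 hits). The Cast/EiJ share was 48.9%, 49.5% and 49.2% in F1 B6xCast and 52.3%, 52.0% and 50.3% in F1 CastxB6, although the level of the gene ranged from 56.5 to 136 count equivalents across those libraries. In all, 326 of 645 hits came from the Cast/EiJ allele, or 50.5% (46.7 to 54.4). The log2 difference was 0.05 with an SE of 0.54 in the model that holds the F0 libraries and an SE of 0.04 in the F1 libraries alone. Both alleles moved together, the C57BL/6J allele from 57.1 to 133 count equivalents and the Cast/EiJ allele from 55.9 to 138.

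The remaining genes had few hits. The Cast/EiJ share was 46.5% for Crybb2 (40.7 to 52.3, 282 hits) and 49.3% for Crygs (40.9 to 57.6, 134 hits). It was 58.6% for Crybb3 (49.5 to 67.2, 116 hits) and 60.0% for Cryba1 (49.9 to 69.3, 95 hits), with the Cast/EiJ allele higher in count equivalents in 5 of 6 libraries for each. The log2 differences were 0.51 for Crybb3 (SE 0.25, adjusted p = 0.10) and 0.65 for Cryba1 (SE 0.40, adjusted p = 0.20). Without F1 B6xCast replicate 1, where 9 of 12 hits came from Cast/EiJ, the value of Cryba1 was 0.37. Crybb1 had 59 hits (52.5%), Cryba2 17 and Cryba4 15, too few for the test.

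**Figure D4:**
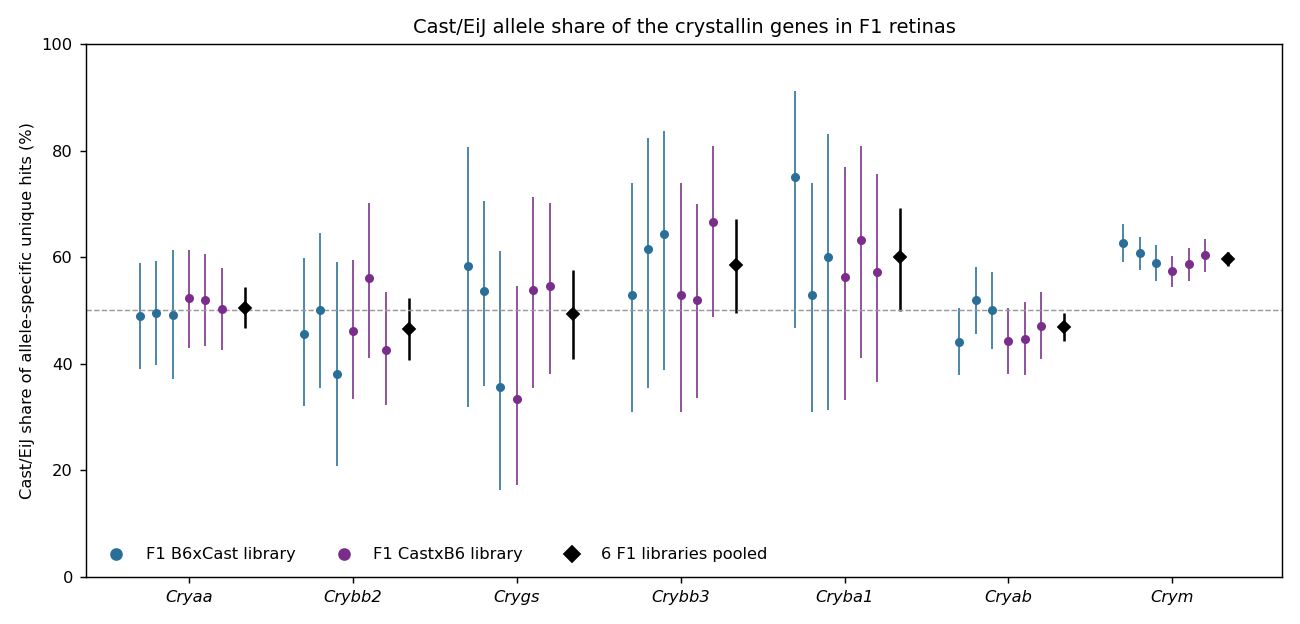
Cast/EiJ share of allele-specific unique hits (percent, 50% dashed) for 7 crystallin genes in the 3 F1 B6xCast (blue) and 3 F1 CastxB6 (purple) libraries and pooled over the 6 (black diamonds), with 95% Wilson intervals. The points of Crym lie between 57.4% and 62.7%, those of Cryaa between 48.9% and 52.3%, and the intervals of Crygs, Crybb3 and Cryba1 are wide.

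The reciprocal crosses let parent of origin be set apart from strain. For maternal minus paternal allele, 0 of the 7 genes passed (limma), where 0.492% of genes did, and 0 had an unadjusted p under 0.05. Differences ranged from −0.15 for Crybb2 to 0.17 for Crybb3. With edgeR on the unique hits the count was also 0.

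The F0 strain difference minus the allelic difference compares the 2 generations. Among the 7 genes 0 passed (limma, 14.0% of genes passed), 0 had an unadjusted p under 0.05, and edgeR on the unique hits called 0. The values were 1.41 for Cryaa (SE 0.99) and −1.05 for Cryba1 (SE 0.73, adjusted p = 0.37). Without F0 C57BL/6J replicate 2 the value for Cryaa was −0.10, and that for Cryba1 was −1.99 and passed (adjusted p = 0.026, limma), where 10.9% of genes passed. In that setting Cryba1 was at −1.34 between F0 strains, while its Cast/EiJ allele held 60.0% of the F1 hits.

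**Figure D5:**
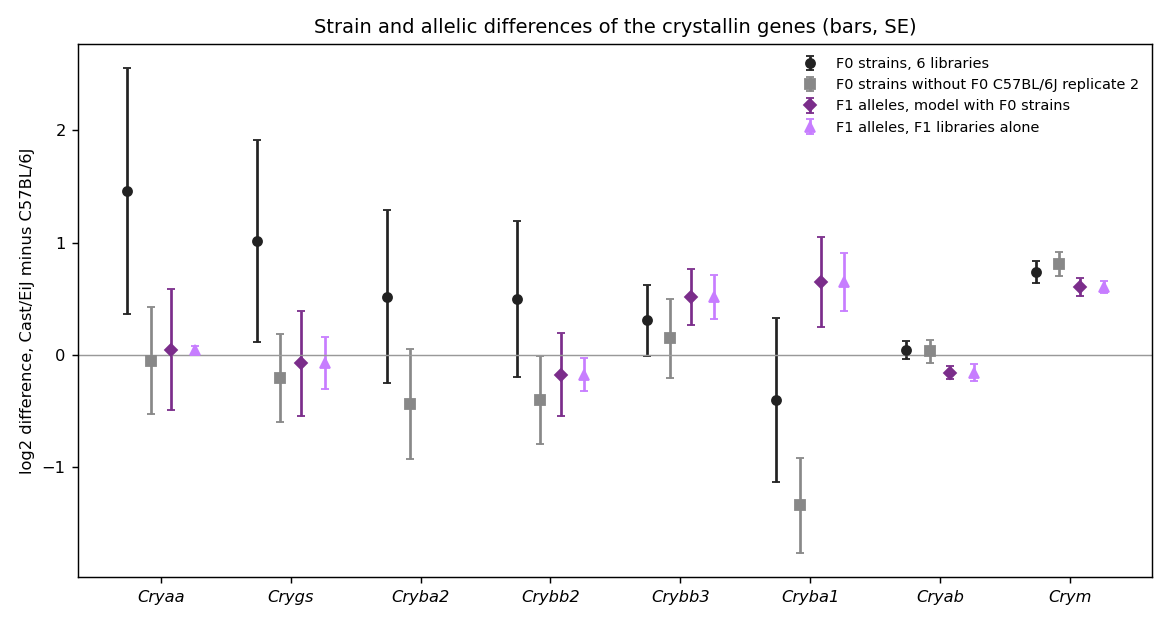
Log2 differences, Cast/EiJ minus C57BL/6J, of 8 crystallin genes between the F0 strains with all 6 libraries and without F0 C57BL/6J replicate 2, and between the F1 alleles in the model with the F0 libraries and in the F1 libraries alone. Bars are SE. Crym lies near 0.74 and 0.60 in the F0 and F1 sets, while Cryaa moves from 1.46 to −0.05 when the one library is left out and its alleles differ by 0.05.

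Between the reciprocal F1 crosses, whose autosomes come from the same strains, 0 of the 10 genes passed (limma), where 0.0401% of 14967 genes did, and edgeR on the unique hits called 0. An unadjusted p under 0.05 was reached by 2, Crybb2, 0.66 higher in CastxB6 on the log2 scale (SE 0.26), and Cryaa, 0.55 higher (SE 0.23), where 4.46% of all genes reached it. Without F1 CastxB6 replicate 3 the values were 0.37 and 0.32. The median over the 10 genes was 0.51, against 0.00 over all genes tested. Unique hits of the lens markers came at rates of 1.94 to 3.18 in B6xCast and 2.88 to 4.96 in CastxB6, and their part in these values was not tested.

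Other genes named after crystallins, a list of 13 that holds the 6 further γ-crystallins, did not all follow the lens crystallins. The 7 outside that group had rates of 72.1 to 82.9 in every library. Of the 5 tested between F0 strains, 1 was higher and 2 lower in Cast/EiJ, where 33.8% of all genes passed. Cryz, ζ-crystallin, a quinone reductase, was 0.66 higher (SE 0.11), and Cryl1, λ-crystallin, an L-gulonate dehydrogenase, 1.41 lower. Crybg3, of the βγ superfamily, was lower by 0.67 between strains and by 0.49 between alleles. It was the 1 of 6 tested between alleles that passed, where 47.0% of all genes did. The list's median was 0.02 for F0 and −0.20 for the alleles.

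Among 8 further small heat shock genes, 0 of 4 tested passed between F0 strains (median −0.39), where 33.8% of all genes did. Between alleles 2 of 4 passed, where 47.0% of all genes did, both lower from Cast/EiJ (23.5% of all genes). These were Hspb6 (−1.0, SE 0.15), the most abundant at 1238 count equivalents, and Hspb1 (−0.65, SE 0.17). The other 2, Hspb8 (0.23, SE 0.17) and Hspb11 (0.12, SE 0.18), leaned to the Cast/EiJ allele and did not pass. The r of Hspb6 and Hspb1 with the mean of the 8 lens crystallins was 0.31 and −0.13 over the 12 libraries.

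Of 16 transcription factors known to act on crystallin genes, 14 matched a single entry by symbol and 12 were tested between F0 strains. Mafa, at 1.45 (SE 0.28), and Pax6, at 0.29 (SE 0.06), were higher in Cast/EiJ and none was lower (median 0.04). Among all genes 33.8% passed. Mafa averaged 9.43 count equivalents in F0 C57BL/6J and 27.6 in F0 Cast/EiJ but 0.185 and 0.173 in the F1 crosses. Its F1 libraries spanned only 0.151 to 0.229, near 0, and F0 and F1 reads were mapped to different transcript sets. Whether this gap lies in expression or in the mapping was not tested. Between alleles Sox2 was higher by 0.40 and Maf lower by 0.23, among 11 tested, where 47.0% of all genes passed. Foxe3, the lens epithelial factor, had 0 unique hits in all libraries and Pitx3 had 1.

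Genes that handle thyroid hormone, the ligand of μ-crystallin, included 9 on the list, of which 6 were tested between F0 strains. The transporters Slco1c1 (0.64, SE 0.14) and Slc7a5 (0.34, SE 0.08) and the activating deiodinase Dio2 (1.56, SE 0.45) were higher in Cast/EiJ. The receptors Thra (−0.23) and Thrb (−0.35) were lower, so that 5 of 6 passed, where 33.8% of all genes did. Between alleles, Slco1c1 was higher from Cast/EiJ by 0.83 and Slc7a5 by 0.69. Thra and Thrb were lower by 0.11 and 0.10, so that 4 of 6 passed, where 47.0% of all genes did.

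Stress and gliosis genes, which rise with Cryab in injured retina, went both ways. Of 11 tested between F0 strains, 6 passed, where 33.8% of all genes did, and the median of the 11 was −0.28. Hspa1b and Serpina3n were higher in Cast/EiJ and Cebpd, Edn2, Gfap and Vim lower. Between alleles 4 of 8 passed, where 47.0% of all genes did. Gfap (0.44), Serpina3n (2.12) and Socs3 (0.54) were higher from Cast/EiJ and Vim lower (−0.39). Gfap, the intermediate filament of astrocytes and reactive Müller glia, was −0.49 between strains and 0.44 between alleles, and these differed (−0.93, SE 0.24, adjusted p = 0.015, limma). Of the lens markers, 1 was tested between F0 strains and did not pass. Both of the 2 tested between alleles passed, where 47.0% of all genes did. These were Bfsp1 (1.23) and Grifin (2.28), higher from Cast/EiJ.

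Genes whose levels followed the members most closely within groups were looked up among 14738 genes averaging 10 or more count equivalents. The closest to the mean of the 8 lens crystallins were Mpv17l2 (r = 0.96 over 12 libraries), Rbm19 (0.96), Btg3 (0.94), Mtf1 (0.93) and Bckdhb (0.93). Without F0 C57BL/6J replicates 1 and 2, the farthest libraries, r was 0.85, 0.94, 0.70, 0.78 and 0.90. The group means still included these libraries, so the values are not free of them. Mpv17l2 ranged only from 108 to 162 count equivalents, lowest in F0 C57BL/6J replicate 2. Crygb, a lens fibre γ-crystallin that averaged 5.72 count equivalents and so fell below the limit, reached 0.89.

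For Cryab the closest were Fer1l5 (0.93), B230208H17Rik (0.93), Rbm15b (0.92), Map3k11 (0.92) and Csda (0.91). For Crym they were Nsmce1 (0.96), Snx4 (0.96), Klhl5 (0.95), Kazn (0.94) and Ctsz (0.94). With so many genes and 12 libraries, values of this size are a description only.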

How the data were processed

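Values were as deposited. The authors trimmed reads (Trim Galore 0.2.6), mapped them (Bowtie 0.12.9) to Ensembl 67 transcripts, edited for the strain in F0 and joined for both strains in F1, and estimated expression with MMSEQ. Count equivalents are a normalized signal the authors deposited. The deposited natural log of expression was taken as FPKM after exponentiation, its posterior SD is a score given by the authors, and unique hits are a count the authors deposited without normalization. The values of 1 lens marker are not reported here. A table of the authors' own model results and 36 per-sample columns were not used.

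Log2 (count equivalents + 1) was fitted over all autosomal genes in limma 3.58.1 (R 4.3.3), with Benjamini-Hochberg adjustment at 0.05. F0 and reciprocal tests needed 10 count equivalents in 3 of 6 libraries. The allelic model held F0 strains and both F1 alleles, with the library as block (correlation 0.1354), over genes with a mean of 10 allele-specific hits. On simulated data 75% of 2-fold F0 changes in 200 of 14452 genes were called. edgeR 4.0.16 and DESeq2 1.42.0 on unique hits were alternatives. Members and lists were chosen with earlier results of these data known. All 10 members, list genes past a test and the 5 most similar genes are named. P-values measure the spread between these libraries. Intervals (95%, Wilson or exact) cover counting error only.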

Additional observations from a re-analysis of the deposited data

How the results depend on the processing

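Crym passed in the F0 and the allelic comparison under each of the 15 and 21 alternatives run. With a replicate block, 2 crystallin genes passed between F0 strains, Crym and Cryaa (adjusted p = 0.047), and 6376 genes did in place of 4887. Same-numbered F0 libraries correlated at 0.32, 0.04 and 0.13, so they share a number and are not taken as pairs. Between alleles, 1 gene passed, Crym, with edgeR on unique hits, with TMM factors and with the F1 libraries alone, the last chosen after seeing the data. Leaving out single libraries gave 1 to 2 called genes between alleles, 0 to 1 for the F0 minus allelic difference, 1 between F0 strains and 0 otherwise. TMM factors moved the F0 split from 2486 higher and 2401 lower to 1695 and 2940. Between reciprocal crosses 12 genes passed in place of 6 without F1 B6xCast replicate 1. Cryab between F0 strains was −0.0359 with TMM factors and −0.0120 with edgeR on rounded count equivalents. With the deposited log expression, Crygs between F0 strains was 6.01. Crygs between alleles was 0.0757 with weights from the posterior SD. Leaving out single libraries moved F0 differences from −0.0503 to 2.32 for Cryaa, −1.34 to 0.16 for Cryba1, −0.44 to 1.08 for Cryba2, −0.40 to 0.99 for Crybb2 and −0.20 to 1.72 for Crygs, allelic Crygs from −0.19 to 0.13 and the F0 minus allelic value of Cryaa from −0.10 to 2.27. The cause was not tested. Depth limits Cryba2, Cryba4 and Crybb1.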
